A study of Mus musculus with 12 samples.

Results

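The subject is a set of 10 miRNAs encoded in the imprinted Dlk1-Dio3 locus of the mouse: miR-434-3p, miR-329, miR-495, miR-376c, miR-376b, miR-487b, miR-382, miR-377, miR-369-3p and miR-410, in their order along the chromosome. They were chosen by name and are 10 of the 566 mouse miRNA probes, or of the 599 probes in all, on the panel. Levels were measured at postnatal day 23 in ileum of male NOD mice (NOD/ShiLtJ), an inbred strain prone to autoimmune diabetes. The 3 treatments had 4 libraries each: mice given cecal material (the label reads cecal material transfer, and the protocol calls the arm restoration), mice given antibiotic (labelled 1PAT antibiotics) and untreated controls. Whether animals of the transfer arm were first treated with antibiotic is not stated, and the compound is not named in the sources used here. The tissue label is ileum, whereas the design text speaks of epithelial cells of the intestine. Dams were randomised with their litters. The litter behind a library is not stated, and p-values reflect only how much these libraries, some possibly from littermates, vary.

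The Dlk1-Dio3 locus is expressed by parent of origin: the protein-coding genes Dlk1, Rtl1 and Dio3 from the paternal copy, and the noncoding RNAs Meg3, Rian and Mirg, with the miRNAs, from the maternal copy. Many of the miRNAs lie close together and are thought to be cut from long shared transcripts, so a common rise or fall of all of them is one possible outcome of a treatment. They are best known from embryo, placenta and brain.

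Mature sequences were read from the RefSeq miRNA table (build GRCm38.p6) to show what each probe was meant to detect and whether members share a target-binding seed. The table held 8 of the 10, and miR-376c and miR-487b are only named. Unsuffixed probe names were taken as the 3p arm, except miR-382, taken as the 5p arm, following older miRNA naming. Bases 2 to 8 from the 5′ end, the seed, are in capitals.
mmu-miR-434-3p: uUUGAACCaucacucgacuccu
mmu-miR-329: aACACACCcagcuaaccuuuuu
mmu-miR-495: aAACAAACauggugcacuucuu
mmu-miR-376b: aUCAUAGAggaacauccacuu
mmu-miR-382: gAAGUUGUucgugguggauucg
mmu-miR-377: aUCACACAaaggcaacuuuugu
mmu-miR-369-3p: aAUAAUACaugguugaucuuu
mmu-miR-410: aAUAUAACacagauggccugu
The 8 sequences carry 8 distinct seeds, so by sequence they do not form a seed family. They are 21 to 22 bases long, and 6 of the 8 start with A, as do 25.5% of the 1738 mature miRNAs in the table. Their GC content ran from 23.8% in miR-369-3p to 50% in miR-382, with a median of 38.1% against 52.2% over the table. All 8 lie on the plus strand of chromosome 12. miR-434-3p is at chr12:109594565-109594586, within the annotated span of Rtl1, and in the mouse it is transcribed antisense to that gene and directs cleavage of its mRNA. miR-329 follows at chr12:109713541-109713562, miR-495 at chr12:109718795-109718816, miR-376b at chr12:109723508-109723528 and miR-382 at chr12:109733781-109733802. miR-377 (chr12:109740553-109740574), miR-369-3p (chr12:109743466-109743486) and miR-410 (chr12:109743764-109743784) lie within the noncoding gene Mirg.

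The deposited values are normalised signal of the NanoString nCounter assay, which ligates a tag to each mature miRNA and counts coloured reporters with no amplification step. Every value was a whole count times 1 factor per library. The recovered total count was 280114 to 393551 in transfer, 120235 to 148297 in antibiotic and 169844 to 274302 in control libraries, so the ranges did not overlap, and 1 count was worth 0.590 to 1.92 units of signal. Of the 33 herpesvirus probes, which serve as a measure of background, 32 reached at most 23.2 to 41.1 units per library. Their mean was 8.92 ± 0.80 in transfer, 12.2 ± 1.80 in antibiotic and 11.3 ± 2.55 in control libraries (SD, n = 4 each). In control replicate 3, 5 of 226 tested probes, miR-376b among them, were more than 1 log2 unit above every other library. No such count was made for the other libraries.

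All 10 members were weak. Their mean signals over the 12 libraries ran from 119 for miR-329, rank 109 among mouse probes, to 32.3 for miR-487b, rank 210. All 10 passed the filter of more than 32 units in at least 4 libraries, and so were among the 226 mouse probes tested. miR-377 passed it only through the 4 transfer libraries, so for this miRNA a difference was in part set by the filter. The 6 members miR-329, miR-369-3p, miR-382, miR-410, miR-434-3p and miR-495 exceeded the highest of the 32 herpesvirus probes in all 12 libraries. miR-376c did so in 11, miR-376b in 7, miR-377 in 5 and miR-487b in 4. The herpesvirus probe left out of this limit, mghv-miR-M1-7-5p, stood apart from the other 32, with 50.1 to 426 units. With all 33 probes and a limit of their mean plus 2 SD, the numbers of libraries above background were lower: 11 for miR-329, miR-382, miR-434-3p and miR-495, 9 for miR-410, 8 for miR-369-3p, 5 for miR-376c, 4 for miR-376b and miR-377 and 1 for miR-487b. The spread within groups was near what counting alone gives for most members: the coefficient of variation was 9.02% against 9.89% from counting for miR-329 and 22.0% against 22.3% for miR-377. The exceptions were miR-376b, with 84.3% against 21.4%, and to a lesser degree miR-495, with 20.1% against 12.4%.

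**Figure D1:**
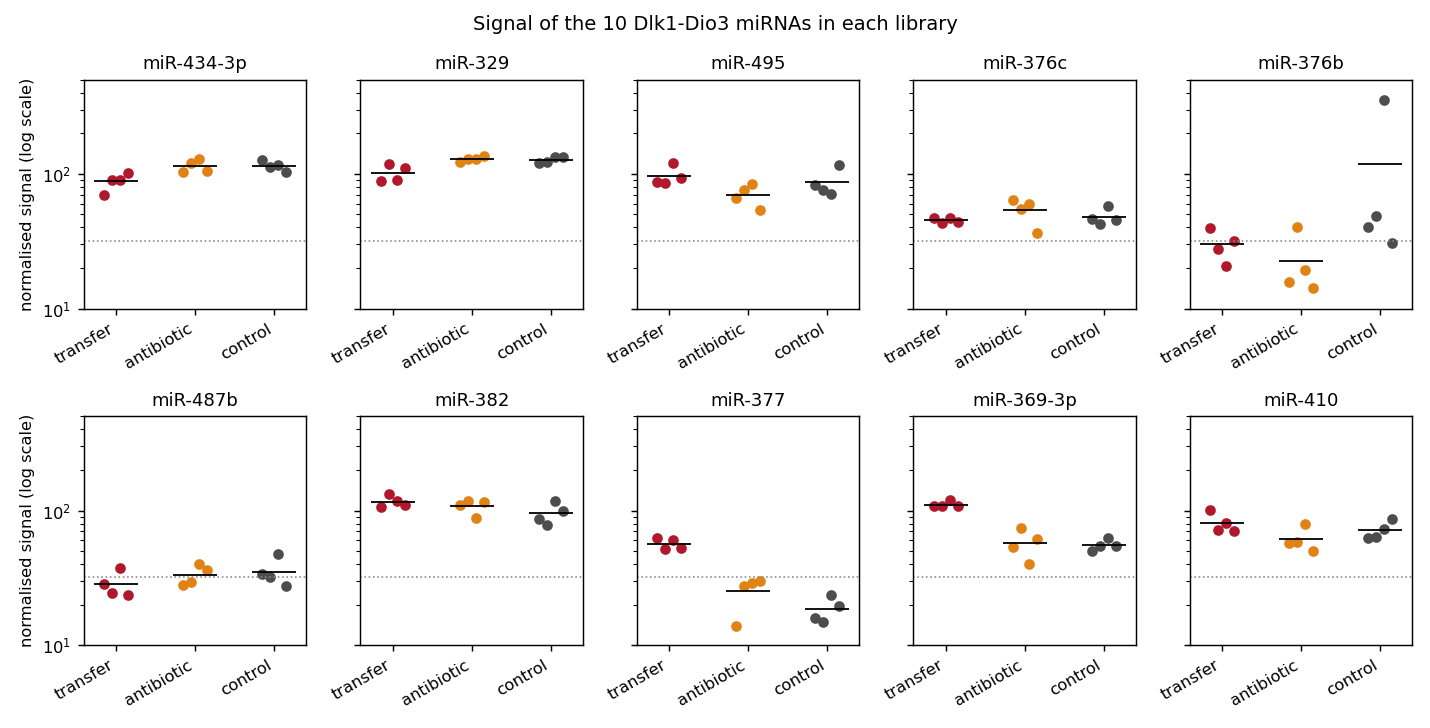
Normalised signal (log axis) of each member in the 4 cecal transfer, 4 antibiotic and 4 control libraries, with members in genomic order; points are libraries in replicate order, black lines are group means and the dotted line is the filter of 32 units. miR-377 and miR-369-3p lie higher in all 4 transfer libraries than in the other 8, and miR-376b has 1 control library at 356.

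In the ileum of mice given cecal material, 2 members were higher and 2 lower than in untreated mice. miR-369-3p was 1.98-fold higher, while miR-329 and miR-434-3p were 1.26-fold and 1.31-fold lower. miR-377 was higher too, by 3.00-fold in the fit, a size that depends on the background because its control values did not exceed the highest of the 32 herpesvirus probes. The split into 2 higher and 2 lower depended on the scaling. With TMM factors it was 3 higher and 0 lower over control (miR-369-3p, miR-377 and miR-382) and 4 higher and 0 lower over antibiotic (miR-369-3p, miR-377, miR-410 and miR-495). With background subtraction it was 3 and 0 over control (miR-369-3p, miR-377 and miR-382) and 3 and 1 over antibiotic (miR-369-3p, miR-377 and miR-410 higher, miR-329 lower). The same 4 members passed against the antibiotic group, in the same directions, but both comparisons use the same transfer libraries. In limma's fit over the 226 tested probes (Benjamini-Hochberg adjustment, threshold 0.05), 4 of 10 members passed against control, where 30.1% of all tested probes did. The 2 higher members compare with 18.1% of all probes called higher, and the 2 lower ones with 11.9% called lower. Against antibiotic, 4 of 10 passed beside 32.7% of all probes, with 2 higher beside 19.9% and 2 lower beside 12.8%. The moderated F test over the 3 groups called 4 members, beside 32.3% of all probes. These shares are close to the background, or rest on 2 members each, and the counts include miR-377, which the filter admitted only through the transfer libraries. Of the other 9 members, 3 passed in each comparison.

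miR-377, studied in kidney mesangial cells for raising fibronectin in diabetes, had 62.6, 51.9, 60.5 and 52.5 units in the transfer libraries. It had 13.9, 27.6, 28.8 and 29.9 in the antibiotic libraries, and 16.1, 14.9, 23.7 and 19.5 in the control libraries. The transfer libraries were thus all above the other 8, and miR-377 exceeded the highest of the 32 herpesvirus probes in 4 transfer, 1 antibiotic and 0 control libraries. The means were 56.9 ± 5.47 in transfer, 25.1 ± 7.50 in antibiotic and 18.5 ± 3.98 in control libraries (SD, n = 4 each). The log2 fold change, on the log2(signal + 1) scale, was 1.58 (SE 0.24, adjusted p = 0.000299) over control and 1.20 (SE 0.24, adjusted p = 0.00240) over antibiotic. With no filter, so that its entry did not hang on the transfer libraries, the adjusted p was 0.000209 over control and 0.00252 over antibiotic. With the mean herpesvirus signal subtracted, the log2 fold change was 3.87 (SE 0.69, adjusted p = 0.000741) over control and 2.43 (SE 0.69, adjusted p = 0.0161) over antibiotic, so its size is not fixed by these data. Behind these signals stood 73 to 89 counts in transfer, 8 to 19 in antibiotic and 14 to 19 in control libraries.

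miR-369-3p, which in human cells acts on the AU-rich element of the TNF-alpha mRNA, had 107.8, 107.3, 119.3 and 108.5 units in the transfer libraries. The antibiotic libraries had 53.9, 74.7, 40.4 and 61.4, and the control libraries 49.9, 54.2, 62.8 and 55.0. No transfer library came near the other 8, and within the transfer group the values were close together. The means were 110.7 ± 5.75 in transfer, 57.6 ± 14.3 in antibiotic and 55.5 ± 5.40 in control libraries. The log2 fold change was 0.99 (SE 0.16, adjusted p = 0.000437) over control and 0.96 (SE 0.16, adjusted p = 0.000629) over antibiotic. Between groups lay 84.3% of the variance of miR-369-3p and 83.8% of that of miR-377, the highest shares among the members.

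miR-329, one of the members studied as a brake on blood vessel growth in mice, had 88.8, 117.4, 90.3 and 109.7 units in the transfer libraries. The antibiotic libraries had 121.7, 129.9, 128.8 and 135.4 and the control libraries 120.9, 122.2, 134.0 and 132.9. The transfer values were the 4 lowest of the 12, although the highest of them came within a few units of the lowest control. The means were 101.6 ± 14.2 in transfer, 129.0 ± 5.61 in antibiotic and 127.5 ± 6.91 in control libraries. The log2 fold change was −0.33 (SE 0.11, adjusted p = 0.0309) over control and −0.35 (SE 0.11, adjusted p = 0.0220) over antibiotic.

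miR-434-3p, the member from the Rtl1 end of the set, had 69.8, 89.7, 90.3 and 101.5 units in the transfer libraries. The antibiotic libraries had 102.6, 120.2, 128.8 and 105.5 and the control libraries 126.8, 112.7, 115.9 and 103.1. Here too the transfer values were the 4 lowest, with a gap to the next library of about 1 unit. The means were 87.8 ± 13.2 in transfer, 114.3 ± 12.4 in antibiotic and 114.6 ± 9.78 in control libraries. The log2 fold change was −0.39 (SE 0.13, adjusted p = 0.0337) over control and −0.38 (SE 0.13, adjusted p = 0.0326) over antibiotic.

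The rise of miR-369-3p held in more of the alternatives than the 2 falls. Each library was left out in turn and 14 other settings were tried, of which 1, a filter of 100 units, did not measure miR-377. Over control, miR-369-3p passed in all 26 of these fits and miR-377 in the 25 that measured it, nearly all of which carry the same filter. Over antibiotic each was lost in 1 fit, with log2 depth as a covariate (adjusted p = 0.338 for miR-369-3p and 0.259 for miR-377), where the log2 fold changes were 0.99 and 1.91. As the recovered totals of the groups do not overlap, depth and treatment cannot be told apart. Over control, miR-329 and miR-434-3p lost their calls in 12 of 26 fits each, and over antibiotic in 7 and 8 of 26, with no change of sign. Without transfer replicate 1 both lost them in both comparisons, with log2 fold changes of −0.27 over control and −0.29 over antibiotic for miR-329 and −0.28 in each for miR-434-3p. The same held without transfer replicate 3, with −0.28 and −0.30 for miR-329 and −0.41 and −0.40 for miR-434-3p. Over control, miR-329 was also lost without control replicate 2 (−0.35), 3 (−0.31) or 4 (−0.31), and miR-434-3p without transfer replicate 2 (−0.40) or control replicate 1 (−0.34), 2 (−0.40) or 3 (−0.38). Over antibiotic, miR-329 was lost without antibiotic replicate 4 (−0.33), and miR-434-3p without antibiotic replicate 2 (−0.36) or 3 (−0.32).

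**Figure D2:**
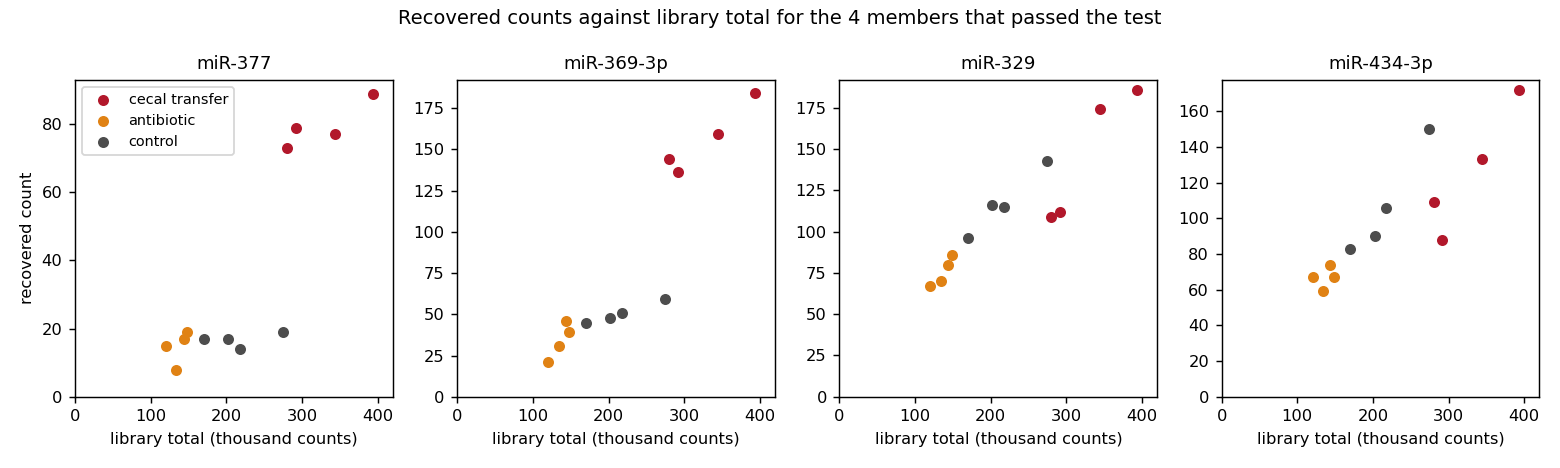
Recovered count of the 4 members that passed the test (vertical axis) against the recovered total of the library (horizontal axis), 1 point per library, coloured by group. miR-377 has 73 to 89 counts in transfer libraries and 8 to 19 in the other 8, while miR-329 has 109 to 186 in transfer, 67 to 86 in antibiotic and 96 to 143 in control libraries.

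Other features of the tissue differed between the same groups. The summed signal of the 5 smooth muscle and fibroblast markers was 38997 to 46958 in transfer, 31969 to 34402 in antibiotic and 28183 to 35486 in control libraries. Most of this sum was miR-145, with a mean of 24186 over all libraries. The 2 enterocyte markers on the panel, of 3 listed, summed to 9524 to 12403 in transfer, 13864 to 16832 in antibiotic and 12067 to 22541 in control libraries. Here most was miR-194, with a mean of 9739. The 5 neural markers, listed because the locus is active in neurons, summed to 405 to 473 in transfer, 383 to 437 in antibiotic and 364 to 419 in control libraries, with overlapping ranges. The highest of them, miR-218, had a mean of 183. The 5 epithelial markers of the miR-200 family summed to 15142 to 17032 in transfer, 17959 to 19986 in antibiotic and 16744 to 19423 in control libraries, so transfer and antibiotic did not overlap. The 3 erythroid markers summed to 1466 to 1981 in transfer, 1208 to 1492 in antibiotic and 1128 to 1381 in control libraries, so transfer and control did not overlap. For the striated muscle, leukocyte, endothelial and endocrine lists the transfer range overlapped those of both other groups. No probe of these lists was at 0 in any library. The part of these markers and of depth in the members' differences was not tested, and in bulk RNA fewer cells of a type and less RNA per cell cannot be told apart.

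miR-495 and miR-410 came nearest to passing among the other members, both against antibiotic. miR-495, studied with miR-329 in vessel growth in mice, had 87.2, 85.0, 120.2 and 93.8 units in transfer, 66.1, 76.3, 84.6 and 53.5 in antibiotic and 82.8, 76.5, 71.2 and 116.8 in control libraries. All 4 transfer values lay above the 4 antibiotic ones, by under 1 unit at the nearest, while both overlapped control. Its log2 fold change over antibiotic was 0.46 (SE 0.18, adjusted p = 0.0631) and over control 0.16 (adjusted p = 0.571). miR-410, described as a regulator of insulin secretion in a mouse beta-cell line, had 101, 71.5, 80.4 and 70.8 units in transfer, 57.4, 58.5, 78.8 and 50.4 in antibiotic and 62.5, 63.8, 72.6 and 87.0 in control libraries. Its groups overlapped, with a log2 fold change of 0.40 (adjusted p = 0.0821) over antibiotic and 0.17 (adjusted p = 0.511) over control. Without antibiotic replicate 3 both passed against antibiotic, at 0.56 (adjusted p = 0.0429) for miR-495 and 0.53 (adjusted p = 0.0318) for miR-410, and without control replicate 4 miR-495 did, at 0.46 (adjusted p = 0.0364). Both also passed with TMM factors, at 0.60 (adjusted p = 0.0372) for miR-495 and 0.53 (adjusted p = 0.0481) for miR-410. miR-410 passed with background subtraction (0.62, adjusted p = 0.0431), and miR-495 with robust moderation (adjusted p = 0.0492) and in a fit of only the groups compared (adjusted p = 0.0464).

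miR-382, studied in kidney tubule cells, had 105 to 132 units in transfer, 88.5 to 117 in antibiotic and 78.7 to 117 in control libraries, with a log2 fold change of 0.29 over control (adjusted p = 0.144). It passed without control replicate 3 (0.39, adjusted p = 0.0486), with TMM factors (0.36, adjusted p = 0.0324) and with background subtraction (0.43, adjusted p = 0.0341). miR-376c, of the miR-376 family whose transcripts are edited from A to I in brain, had 43.2 to 47.2 units in transfer, 36.2 to 64.4 in antibiotic and 42.5 to 57.2 in control libraries (log2 −0.07, adjusted p = 0.821 over control). miR-487b, another member studied in vessel growth, was the weakest, with 23.6 to 37.3 units in transfer, 27.8 to 40.4 in antibiotic and 27.5 to 47.5 in control libraries (log2 −0.29, adjusted p = 0.368 over control). For these 3 members every pair of groups overlapped and, as fitted on the deposited signals with all libraries, none of the 3 comparisons passed.

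Counting by range, 4 of 10 members had no overlap between transfer and control libraries, beside 29.6% of the tested probes. Between transfer and antibiotic libraries it was 5 of 10, beside 33.6%. Both counts, and the medians below, include miR-377, which the filter admitted only through the transfer libraries. The median log2 fold change of the 10 members was 0.05 over control, equal to the 0.05 of all tested probes, with 5 positive and 5 negative. Over antibiotic it was 0.25 against 0.04, with 6 positive and 4 negative. Without miR-376b the members' median was 0.16 over control and 0.11 over antibiotic, so these medians hang on single members. The median size of the change without regard to sign was 0.31 over control, against 0.20 for all probes, and 0.39 over antibiotic, against 0.23. Counting error adds to unsigned changes and is larger in weak probes. The members were weak and were not set against probes of like signal, so no conclusion is drawn from these sizes.

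miR-376b, linked to autophagy in human cells, differed from the other members in resting on a single library. It had 39.6, 27.7, 20.7 and 31.9 units in transfer, 15.7, 40.6, 19.2 and 14.2 in antibiotic and 40.6, 48.9, 356.1 and 30.9 in control libraries. Control replicate 3 lay 7.28-fold above the highest of the other 11 libraries, and the remaining values overlapped between all groups. The control mean was 119 ± 158 (SD, n = 4) with that library and 40.1 ± 8.99 (SD, n = 3) without it. With all libraries the log2 fold change was −1.21 (SE 0.60, adjusted p = 0.154) for transfer over control and −1.70 (SE 0.60, adjusted p = 0.147) for antibiotic over control. Without control replicate 3 these were −0.42 (adjusted p = 0.401) and −0.91 (adjusted p = 0.166). For transfer over antibiotic it was 0.49 (adjusted p = 0.576). edgeR's quasi-likelihood test on the recovered counts, with that library kept, called transfer over control (log2 −1.94, adjusted p = 0.0389).

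The same library raised miR-196b to 776 units, against at most 149 in the other 11, and 1 herpesvirus probe to 426, against at most 185. The close relative miR-376a-3p, encoded beside miR-376b, did not share the high value, with 1042 units in control replicate 3 and 864 to 1176 in the other libraries. Its sequence is shown to compare it with that of miR-376b above.
mmu-miR-376a-3p: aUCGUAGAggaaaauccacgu
From miR-376a-3p to miR-376b, 3 of 21 bases differ, at G4A, A13C and G20U, counted from the 5′ end, the first of them within the seed. The sum of the 10 members followed the same library, at 754 ± 20.1 units in transfer, 675 ± 46.6 in antibiotic and 772 ± 193 in control libraries. Without miR-376b it was 724 ± 27.5 in transfer, 652 ± 36.4 in antibiotic and 653 ± 49.9 in control libraries (SD, n = 4 each).

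The antibiotic group was also compared with untreated mice. With limma, 0 of 10 members passed, as did 0% of the 226 tested probes. At an unadjusted p under 0.05 there was 1 member, miR-376b as above, and 34 of all probes, and edgeR and DESeq2 on the recovered counts also called 0 members. The 4 members that passed in the transfer comparisons had log2 fold changes of 0.02 (miR-329, SE 0.11), 0.02 (miR-369-3p, SE 0.16), −0.01 (miR-434-3p, SE 0.13) and 0.38 (miR-377, SE 0.24, adjusted p = 0.459). miR-495 had −0.30 and miR-410 −0.23, miR-382 0.18, miR-376c 0.14 and miR-487b −0.06, with adjusted p from 0.459 to 0.955. Ranges did not separate for any member, beside 8.41% of all tested probes. The median log2 fold change was 0.01, as over all probes.

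Co-variation was asked next: whether libraries of a group that were high for a member were high for the others too. Group means were subtracted from the log2 signals, leaving for each of 45 pairs 12 deviations, and r was tested with all 13824 permutations within groups. For most members these deviations were near the size of counting error, which can hide shared changes. A lack of passing pairs therefore does not show that members vary independently. No pair passed after adjustment over the 45 (smallest adjusted p = 0.654 for Pearson's r and 0.839 for Spearman's rho, exact permutation test), and 2 had an unadjusted p under 0.05. The highest was miR-369-3p with miR-382, at r = 0.67 (rho = 0.62, exact permutation p = 0.0145, adjusted p = 0.654). Without the 2 libraries farthest from the median of miR-369-3p it was 0.62. The other was miR-377 with miR-487b, at r = 0.58 (rho = 0.66, exact permutation p = 0.0413, adjusted p = 0.893), and 0.59 without the 2 farthest libraries. miR-369-3p and miR-377, both higher after transfer, had r = 0.22 within groups (rho = 0.53, exact permutation p of r = 0.632, adjusted p = 0.893). Without the 2 libraries farthest from the median of miR-369-3p it was 0.68, so this r hangs on 2 libraries. miR-329 with miR-434-3p had r = 0.36 (rho = 0.32, exact permutation p of r = 0.517, adjusted p = 0.893), and 0.07 without the 2 libraries farthest for miR-329.

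Across the 45 pairs r ran from −0.38 to 0.67 with a median of 0.09, and 29 pairs, or 64.4%, were positive. Over all 25425 pairs of tested probes the median was 0.07 and 56.5% were positive, close to the members' values. The positive majority depended on the scaling: 18 pairs were positive with median centring (median −0.097), 21 with quantile normalisation (median −0.017) and 21 with background subtraction (median −0.017). Without control replicate 3 the members' median was 0.01 and 23 pairs were positive. In that library 9 of 10 members lay above the control mean, with a median deviation of 0.22 on the log2 scale, and in control replicate 2 none of 10 did. Pairs share their libraries and each member enters 9 of them, so these values are descriptive.

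**Figure D3:**
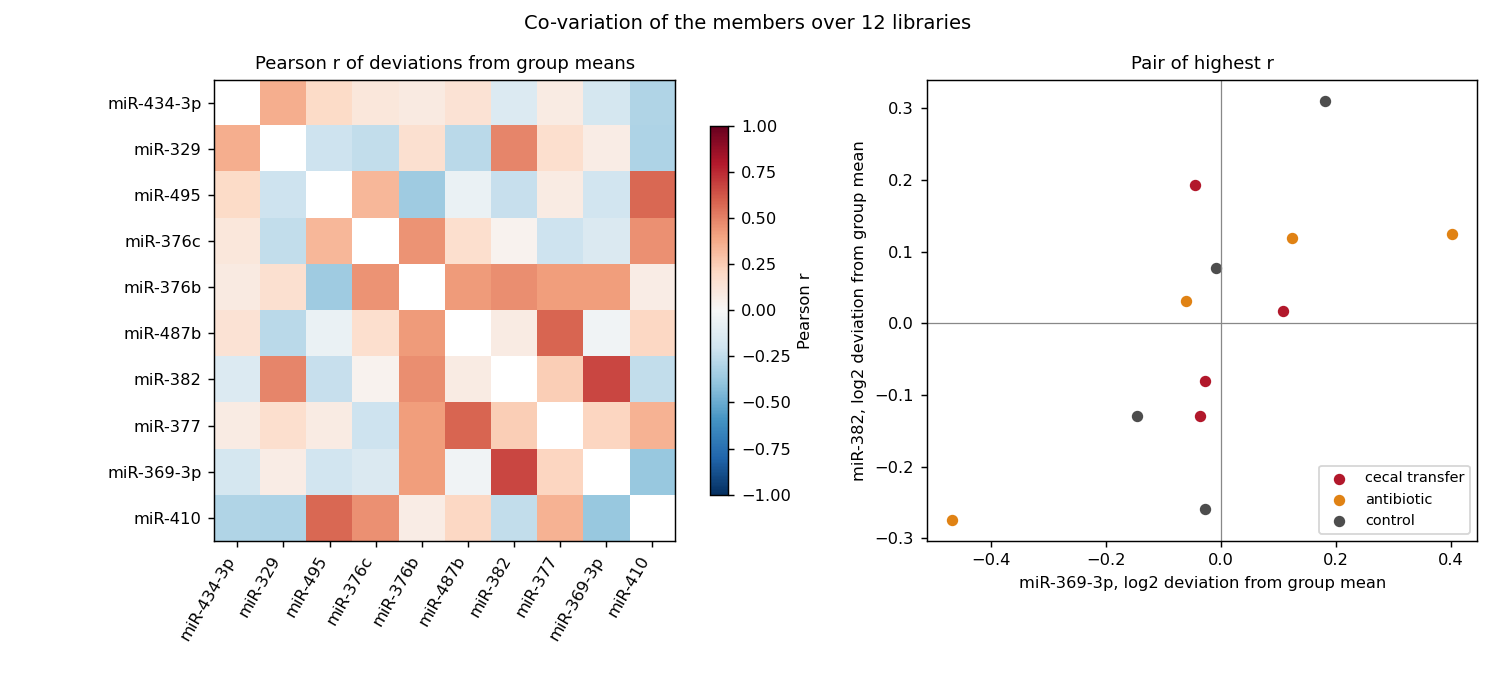
Left, Pearson r of the deviations of log2(signal + 1) from group means for the 45 pairs of members, in genomic order, with red for positive and blue for negative r over 12 libraries; right, the deviations of miR-382 against those of miR-369-3p, 1 point per library coloured by group. Red and blue cells are mixed, with a median r of 0.09, and the pair at right has r = 0.67.

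For each member the non-member probe most like it within groups was sought among 216 tested probes, over the 12 libraries. These were miR-34b-5p for miR-382 (r = 0.99), miR-196b for miR-376b (0.97), miR-125a-3p for miR-329 (0.91), miR-101b for miR-410 (0.90) and miR-1902 for miR-369-3p (0.86). The others were miR-1961 for miR-495 (0.83), miR-149 for miR-376c (0.81), miR-292-5p for miR-377 (0.80), miR-199a-5p for miR-487b (0.77) and miR-195 for miR-434-3p (0.74). They are the highest of 216 values each and are given with no test. Control replicate 3 was far above the other libraries for both miR-376b and miR-196b, and r without it was not taken for this pair. miR-34b-5p and miR-1902 had mean signals of 28.8 and 31.4 units. These lie within the 23.2 to 41.1 units reached by the highest of 32 herpesvirus probes per library. None of the 10 is another probe of the locus.

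In order along the chromosome from the Dlk1 side, the 2 lower members were numbers 1 and 2 of the 10. The 2 higher ones, within Mirg, were numbers 8 and 9. In distance the 2 lower members do not lie together: the hairpin of miR-329 starts 119 kb from that of miR-434-3p and 27.0 kb from that of miR-377. miR-410, whose hairpin starts 297 bases after that of miR-369-3p, did not pass, with 0.17 over control against 0.99. Over the 10 members, Spearman's rho between genomic order and log2 fold change was 0.72 for transfer over control and 0.65 for transfer over antibiotic. For antibiotic over control it was 0.21. Without miR-377, which the filter admitted only through the transfer libraries, rho was 0.68, 0.60 and 0.08 over 9 members. Over all 19 tested probes of the locus, miR-377 included, it was 0.15, 0.47 and −0.28. Over the 9 that are not members it was −0.72, 0.43 and −0.78. The order seen among members was thus not seen in the rest of the locus for transfer over control. These are descriptions across miRNAs that share libraries, with no p.

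**Figure D4:**
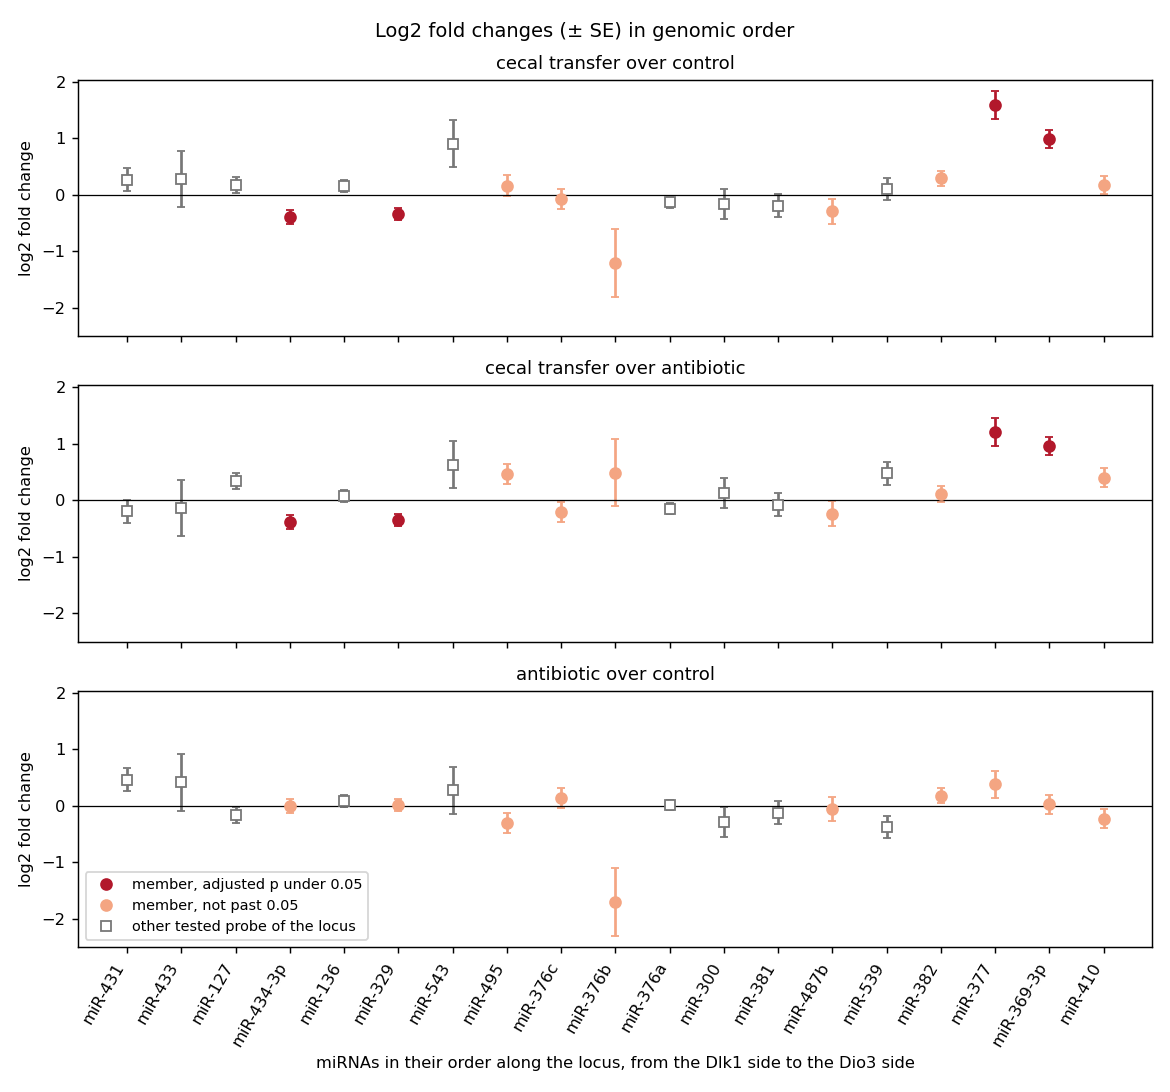
Log2 fold change ± SE (vertical axis) of the 19 tested miRNAs of the locus in their order from the Dlk1 side to the Dio3 side (horizontal axis, not to scale), for cecal transfer over control, cecal transfer over antibiotic and antibiotic over control from top to bottom; circles are members, dark where adjusted p is under 0.05, and open squares the other probes. miR-434-3p and miR-329 lie below 0 and miR-377 and miR-369-3p above it in the top 2 panels. None of the 9 other probes was called, beside 30.1% and 32.7% of all tested probes in those 2 panels.

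Of 54 further probes listed for the locus, 9 were tested and 0 passed in any of the 3 comparisons, by limma. Over all 226 tested probes, 30.1% passed for transfer over control, 32.7% for transfer over antibiotic and 0% for antibiotic over control. At an unadjusted p under 0.05 there were 1, 2 and 1 of the 9 in these comparisons, beside 84, 90 and 34 of all tested probes. Whether the 9 differ from these shares, or from the members, was not tested. For transfer over control, the log2 fold changes of the 9 had a median of 0.16. They ran from −0.20 to 0.91, the last for miR-543 (adjusted p = 0.131). The most abundant was miR-376a, with 925 ± 49.6 units in transfer, 1029 ± 125 in antibiotic and 1017 ± 92.3 in control libraries (log2 −0.13 over control, adjusted p = 0.338). miR-136 had 368 ± 46.2 in transfer, 347 ± 33.6 in antibiotic and 328 ± 28.6 in control libraries (log2 0.16, adjusted p = 0.296). miR-127, which like miR-434 lies antisense to Rtl1, had 109 ± 18.2 in transfer, 85.3 ± 10.3 in antibiotic and 95.9 ± 11.7 in control libraries. Its log2 fold change was 0.35 over antibiotic (adjusted p = 0.0821) and 0.18 over control (adjusted p = 0.416), where that of miR-434-3p was negative in both. miR-539 had 99.3 ± 8.28 in transfer, 72.6 ± 17.5 in antibiotic and 94.3 ± 24.8 in control libraries (log2 0.48 over antibiotic, adjusted p = 0.0821). The other 45 probes had mean signals of 2.50 to 24.6 units and were not tested.

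Members share seeds with miRNAs from elsewhere in the genome, so the pool of a seed can differ from the member. miR-329 shares its seed with miR-362-3p, from the X chromosome, whose sequence is shown for the shared capitals.
mmu-miR-362-3p: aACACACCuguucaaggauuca
This miRNA had 84.8, 78.2, 77.9 and 70.8 units in transfer, 27.8, 47.1, 34.6 and 47.2 in antibiotic and 40.6, 46.8, 79.6 and 81.3 in control libraries. It was higher in transfer than in antibiotic libraries (log2 1.00, SE 0.23, adjusted p = 0.00594), where miR-329 was lower, and overlapped control (log2 0.39, adjusted p = 0.249). In the RefSeq table miR-410 shares its seed with miR-344d-3p and miR-344e-3p, and miR-495 with miR-1192 and miR-12200-5p.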

How the data were processed

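Members and lists were chosen with earlier results of these data known. RNA from a column kit was run on the nCounter mouse miRNA panel, per the labels' protocols. The authors deposited normalised signal for 599 probes. How they were scaled, and with which software, is not given in the sources used here, and control probes were not used here. In each library 100% of the deposited signal values were whole multiples, within 0.01, of the lowest value, which gave the recovered counts, and the 100 most abundant mouse probes summed to 220014 to 222309. Scaling leaves depth, and so precision, unequal between groups. Intervals from counts cover counting error only.

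Signal was analysed as log2(value + 1) for the 226 mouse probes above 32 in at least 4 libraries, in 1 limma 3.58.1 model (R 4.3.3) over 12 libraries with a mean trend and Benjamini-Hochberg adjustment over all tested probes. All libraries carry the same batch label. On recovered counts, replicates of a group differed by 2.96 to 29.8 in chi-square per degree of freedom, more than counting error alone gives. This cannot tell repeat runs of the same RNA from libraries of separate animals. Correlations used permutation tests. Named miRNAs are all members, the other locus probes of highest mean or past the threshold, and for each member the probe most like it. Others were named after their values were seen. Alternatives were other scalings (median, quantile, TMM), a pseudocount of 10, filters, variance moderation, background subtraction, depth as a covariate, thinning, edgeR 4.0.16, DESeq2 1.42.0 and each library left out. Scripts were tested on simulated data.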

Additional observations from a re-analysis of the deposited data

Results flagged for a closer look

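Each member was examined in each group of 4 libraries for a library far from the other 3, on the log2 and on the signal scale, by Dixon's test for groups of 4. Of 30 groups, 3 had such a library, and chance gives about 1 in 20. miR-376b in control replicate 3, at 356.1 units against 30.9 to 48.9 in the other 3 control libraries, had a gap of 0.945 of the range on the signal scale and did not exceed the critical value on the log2 scale. miR-369-3p in transfer replicate 3, at 119.3 units against 107.3 to 108.5 in the other 3, had a gap of 0.887 on the log2 scale and 0.893 on the signal scale. miR-377 in antibiotic replicate 1, at 13.9 units against 27.6 to 29.9 in the other 3, had 0.894 on the log2 scale and 0.856 on the signal scale. The causes were not tested.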

How the results depend on the processing

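For transfer over control, the 4 members called became 2 with no filter, with log2 depth as a covariate, with DESeq2 and with thinning to the shallowest library. For transfer over antibiotic they became 0 with log2 depth and 2 with DESeq2, and with TMM factors the 4 were all higher, miR-410 and miR-495 in place of miR-329 (adjusted p = 0.134) and miR-434-3p (0.168). For the F test they became 2 with TMM factors, no filter, log2 depth, DESeq2 and thinning. Where 2 remained they were miR-369-3p and miR-377, and DESeq2 gave an adjusted p for 9 of 10 members. Leaving out each library gave 2 to 4 members for transfer over control, 2 to 5 for transfer over antibiotic and 2 to 5 for the F test. It gave 0 for antibiotic over control and 0 pairs for co-variation. The count was 2 for transfer over control without transfer replicate 1 or 3 or control replicate 2, and for the other 2 tests without transfer replicate 1 or 3. Without subtraction of group means 1 pair passed, miR-369-3p with miR-377 (permutation adjusted p = 0.0351), over libraries that fall apart by group. Both were called higher in transfer, so this result repeats the group difference and is no separate sign of co-variation. All members passed the filter, so restricting pairs to those changes nothing. For antibiotic over control every alternative gave 0 members. Signs changed only among log2 fold changes that had not passed. With log2 depth, transfer over control was 0.24 for miR-376c and 0.18 for miR-487b, transfer over antibiotic 0.43 and 0.74, and antibiotic over control −0.19 for miR-376c and 0.17 for miR-434-3p. With thinning, transfer over control was 0.23 for miR-487b and −0.088 for miR-495, and antibiotic over control −0.013 for miR-329, 0.048 for miR-434-3p and 0.27 for miR-487b. With background subtraction, miR-376c was 0.17 for transfer over control and miR-434-3p 0.021 for antibiotic over control. The rest were miR-382 with quantile normalisation (−0.011, transfer over antibiotic) and, for antibiotic over control, miR-434-3p with median centring (0.011), miR-329 (−0.050) and miR-369-3p (−0.042) with TMM factors and miR-329 with edgeR (−0.0020). With a library left out, miR-376c ran from −0.13 to 0.013 for transfer over control. For antibiotic over control the ranges were −0.0079 to 0.044 for miR-329, −0.11 to 0.18 for miR-369-3p, −0.066 to 0.043 for miR-434-3p and −0.16 to 0.091 for miR-487b. The causes were not tested. No paired analysis was possible because the litter behind a library is not stated. Replicate numbers count the libraries of a group in their listed order and do not link libraries across groups. Depth limits the weak members: miR-377 had 8 to 19 counts and miR-487b 16 to 23 in antibiotic libraries.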

Other observations

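The partner strands of 2 members, cut from the same hairpins, were on the panel but too weak to test. miR-369-5p had 15.7 ± 4.75 units in transfer, 22.3 ± 10.8 in antibiotic and 14.9 ± 2.29 in control libraries, where miR-369-3p was higher in transfer. miR-434-5p had 21.4 ± 4.81 units in transfer, 16.1 ± 4.98 in antibiotic and 17.4 ± 10.2 in control libraries, where miR-434-3p was lower in transfer (SD, n = 4 each). All 6 means lay below the 32 units of the filter, and no direction is drawn from them.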
